A study of Homo sapiens with 6 samples.

Results

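The matrix proteases and their inhibitors described here are 9 genes of the deposited expression table, taken by symbol from the 30735 genes it lists. They are the metalloproteases MMP14, MMP2 and MMP9, the tissue inhibitors of metalloproteases TIMP1, TIMP2 and TIMP3, and the urokinase genes PLAU, PLAUR and SERPINB2. All 9 symbols were found, each in 1 row. The RNA came from SET-2, an established line of human megakaryoblastic leukaemia cells that carries a mutant JAK2, and was sequenced in bulk after selection of polyadenylated transcripts. The 6 libraries were 3 of cells given placebo, called control here, and 3 of cells treated with CPL, so all groups share the line and its mutations, and no other agent is named in the labels. The labels name neither the nature of CPL nor its dose or duration. They do not say whether replicates were separate cultures either, and the spread behind each p-value may therefore be technical.

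Metalloproteases of the matrix are made as inactive proenzymes and cut collagens, other matrix proteins and many cell-surface proteins once their propeptide is removed. TIMPs bind the active site of the mature enzymes, and the membrane protease MMP14 uses TIMP2 as a bridge to dock and activate pro-MMP2. Urokinase, bound to its receptor at the cell surface, turns plasminogen into plasmin, which degrades fibrin and matrix. In the bone marrow these enzymes are known for a role in cell egress and in release of growth factors, and megakaryocytes and platelets carry several of them together with TIMPs.

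Levels are given in FPKM, which divides the reads of a gene by its length and by the library's depth. The length that fits the values is that of all merged exons, not of the transcript expressed, so levels of different genes compare only roughly. In bulk RNA, fewer cells of a type and less RNA per cell cannot be told apart. Reads recovered from the values put the depth between 14646660 and 18238920 reads per library. Markers of the megakaryocyte lineage were present, with 11 of the 13 listed markers found in the table at 1 FPKM or more in at least 3 libraries, among them ITGA2B at 163 FPKM and GATA1 at 133 FPKM on average in control, while VWF stayed under 1 FPKM. All 7 fibroblast markers, all 5 neutrophil markers and all but LYZ of the 8 monocyte and macrophage markers found in the table stayed under 1 FPKM in every library, and no marker was at 0 in all 6. The summed level of the 7 endothelial markers, which ESAM and TIE1 dominated, was 54.4 to 57.6 FPKM in control and 61.8 to 86.6 FPKM in CPL. The megakaryocyte sum was 426 to 471 FPKM and 441 to 626 FPKM, in that order, and the lymphocyte sum 25.5 to 31.6 FPKM and 22.9 to 31.6 FPKM. The neutrophil sum was low throughout and did not overlap, at 0.965 to 1.10 FPKM in control and 0.301 to 0.633 FPKM in CPL. Only markers at 1 FPKM or more in at least 3 libraries were tested between the groups in limma, and none of those passed. No neutrophil or fibroblast marker reached that level, so none of them was tested. The part of these sums in the results on the proteases was not tested. CPL replicate 1 had the strongest trend with the GC content of genes. The rank correlation between GC content and its deviation from the mean of all libraries was 0.736, against −0.510 to −0.005 in the other 5 libraries. Control replicate 2 (−0.510) and CPL replicate 3 (−0.475) had marked trends of the opposite sign.

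The levels of the 9 genes spanned several orders of magnitude, with the inhibitors TIMP3 and TIMP1 at the top and the inhibitors TIMP2 and SERPINB2 at the bottom. In control cells TIMP3 ranked 238th and TIMP1 489th by mean FPKM among the 13092 genes that reached 1 FPKM in 3 or more libraries, the filter used for testing. MMP14 ranked 4022nd, PLAUR 8611th, MMP2 10498th and PLAU 12995th. MMP9, TIMP2 and SERPINB2 were under that filter and were not tested. In control libraries each of the first 6 genes in the order TIMP3, TIMP1, MMP14, PLAUR, MMP2 and PLAU lay above the next without overlap. The ranges of MMP9 and TIMP2 overlapped, as did those of TIMP2 and SERPINB2. In CPL libraries the order was the same, but PLAUR and MMP2 overlapped while MMP9 and TIMP2 did not. In 5 of the 6 tested members all CPL libraries lay above all controls, against 14.1% of all tested genes, and the groups did not overlap in either direction in 29.1%. PLAU, among these 5, had to differ to pass the filter, so nothing is read from that count.

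**Figure D1:**
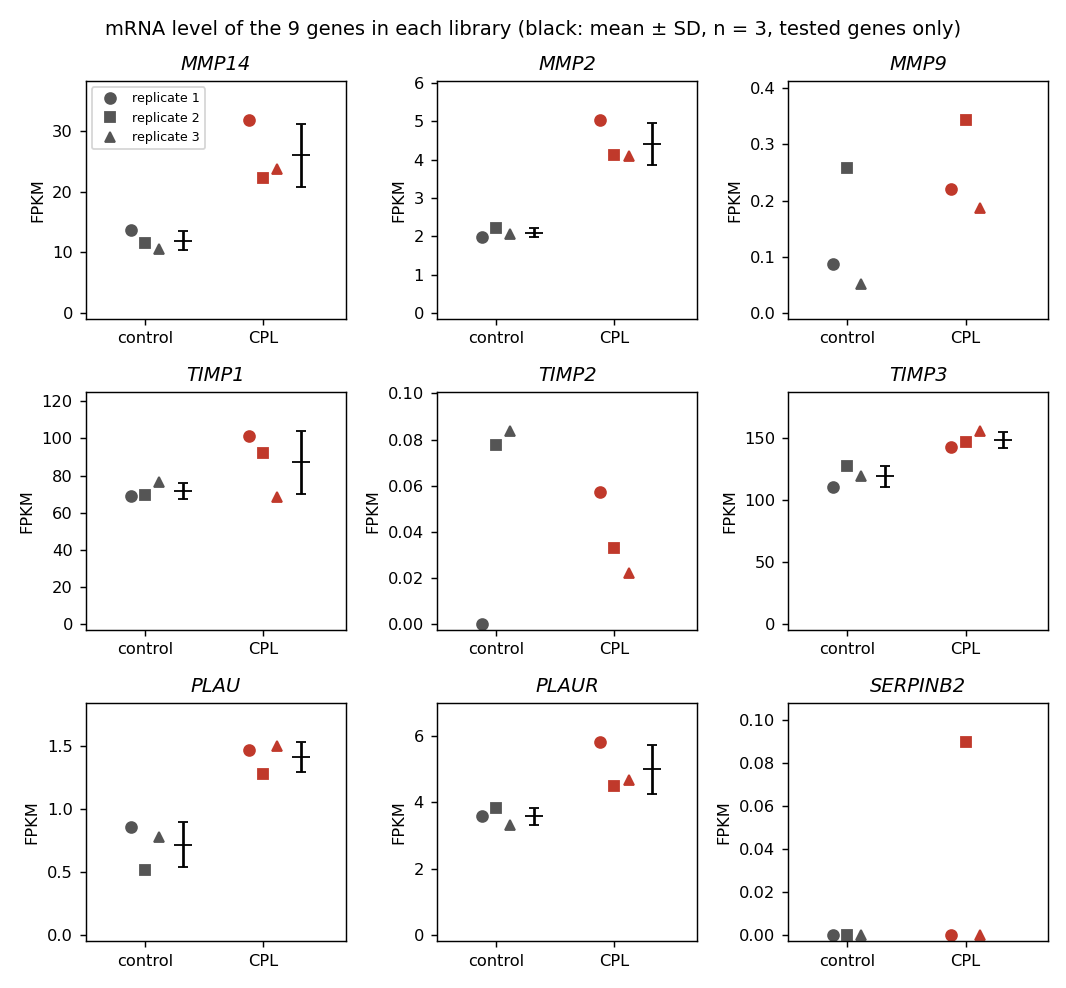
Level of each of the 9 genes in FPKM (vertical axis, linear, a separate scale per gene) in the 3 control and 3 CPL libraries, with marker shapes for replicates 1 to 3 and the mean ± SD in black for the 6 tested genes. MMP14 lies between 10.6 and 13.7 FPKM in control and between 22.3 and 31.9 FPKM in CPL, whereas TIMP2 and SERPINB2 stay under 0.1 FPKM.

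MMP14 and MMP2 rose after CPL, by 2.18-fold and 2.12-fold in mean FPKM, and they were the only members past the threshold among the 6 that could be tested. The test was limma on log2(FPKM + 1) over all 13092 genes with Benjamini-Hochberg adjustment at 0.05, which called 1.76% of all tested genes, or 1.09% higher in CPL and 0.665% lower. MMP14 (ENSG00000157227, chromosome 14, 22836557 to 22849027, plus strand, GRCh38) encodes the membrane-type protease MT1-MMP, which cuts collagen at the cell surface. It had 13.7, 11.5 and 10.6 FPKM in control replicates 1, 2 and 3, and 31.9, 22.3 and 23.8 FPKM in CPL replicates 1, 2 and 3. The lowest CPL library was thus above the highest control, and CPL replicate 1 was the highest of all. The means were 11.9 ± 1.59 FPKM in control and 26.02 ± 5.16 FPKM in CPL (SD, n = 3 each), from 800 to 937 reads in each control and 1612 to 2206 in each CPL replicate. On the log2(FPKM + 1) scale the change was 1.06 ± 0.16 (SE, limma adjusted p = 0.0279).

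MMP2 (ENSG00000087245, chromosome 16, 55389700 to 55506691, plus strand) encodes gelatinase A, a secreted enzyme that cuts denatured collagen and basement membrane and is activated by MMP14. Its level was 1.98, 2.21 and 2.07 FPKM in the controls and 5.04, 4.11 and 4.09 FPKM in CPL replicates 1, 2 and 3. All CPL libraries again lay above all controls, and CPL replicate 1 was again the highest. The means were 2.09 ± 0.117 and 4.41 ± 0.544 FPKM (SD, n = 3 each), on 143 to 199 and 324 to 385 reads per library. The change was 0.81 ± 0.12 on the log2(FPKM + 1) scale (SE, limma adjusted p = 0.0263), a scale that understates it at this level, since it was 1.07 with a pseudocount of 0.01. AC007336.3, a transcript on the same strand, shares 3.53% of the exon bases of MMP2 and had at most 0.0299 FPKM.

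Every CPL library of MMP14 and MMP2 lay above every control, so leaving out 1 library could not reverse their direction. Their calls did change. Without control replicate 1, 2 or 3 the limma adjusted p of MMP14 was 0.103, 0.134 and 0.140, and that of MMP2 was 0.136, 0.117 and 0.129. Without CPL replicate 2 it was 0.0849 for MMP14 and 0.101 for MMP2, so no member passed in these 4 fits. Without CPL replicate 1, the library with the strongest GC trend, both passed with lower adjusted p (0.0104 for MMP14 and 0.0162 for MMP2). Their changes were then smaller (0.90 and 0.73 on the log2 scale). With the GC trend removed from every library the changes were 0.91 and 0.70 (adjusted p = 0.00258 and 0.00461). In that fit 6.99% of tested genes were called higher. With no filter on low values neither passed (adjusted p = 0.118 for MMP14 and 0.102 for MMP2), and with the replicate number as a block MMP2 did not (0.0746). The longest transcript of MMP14 has 58.9% GC and that of MMP2 56.5%.

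MMP9 (ENSG00000100985, chromosome 20, 46008908 to 46016561, plus strand), which encodes gelatinase B, an enzyme of neutrophils and macrophages, was near the detection limit. The values were 0.0877, 0.258 and 0.0505 FPKM in control and 0.221, 0.344 and 0.187 FPKM in CPL replicates 1, 2 and 3. These stood for 3, 11 and 2 reads and for 8, 13 and 7 reads, and the groups overlapped. Summed over the group, control had 16 reads (95% exact Poisson interval 9.15 to 25.98) and CPL had 28 (18.6 to 40.5) at totals of 49830490 and 47718390 reads, intervals that cover counting error only and that overlap. Overlap of these intervals is not a test of a difference, so a change in MMP9 was neither shown nor excluded. An antisense gene, SLC12A5-AS1, shares 18.4% of the exon bases of MMP9 and had 0.0913 to 0.317 FPKM. The labels do not say that strand was kept, so reads of the pair cannot be told apart.

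The MMP14 promoter is shown because MMP14 is the member with the largest change. RefSeq sequences (GRCh38.p14, 250 bases before to 50 after the start) matched 6 of the 9 members. MMP2, MMP9 and TIMP2 had no sequence and were not searched. Letters in capitals mark matches, on either strand, to any of 4 short motifs, each given with its share among 35116 promoters of the same length. The AP-1 motif was searched as TGANTCA, which 7.71% of promoters hold. The core of the antioxidant response element was searched as TGACNNNGC, found in 13.3% of them. For the GC box the letters were GGGCGG, present in 44.95% of promoters. The TATA box was taken as TATAAA, present in 11.5% of promoters. An NF-kB pattern was also searched and is not in capitals, since 58.7% of all promoters hold it and it can overlap the GC box. The MMP14 window (chr14:22836335-22836634, plus strand) held 1 GC box, 66 bases before the start, and 1 NF-kB match, 35 bases before it.
MMP14: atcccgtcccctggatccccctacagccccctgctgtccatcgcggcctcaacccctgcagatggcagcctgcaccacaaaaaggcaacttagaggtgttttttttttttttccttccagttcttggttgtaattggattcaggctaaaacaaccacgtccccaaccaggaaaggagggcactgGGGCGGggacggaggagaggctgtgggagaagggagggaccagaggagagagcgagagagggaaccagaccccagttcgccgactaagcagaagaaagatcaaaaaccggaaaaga

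Among the inhibitors neither TIMP1 nor TIMP3 passed the test and TIMP2 was too low to be tested, although the 3 TIMP3 libraries of CPL-treated cells all lay above the controls. TIMP3 (ENSG00000100234, chromosome 22, 32801701 to 32863043, plus strand) encodes the inhibitor that binds to the matrix itself and also inhibits ADAM17. It was at 110.7, 127.4 and 119.4 FPKM in control and at 143.3, 146.9 and 156.1 FPKM in CPL replicates 1, 2 and 3. Here CPL replicate 1 was the lowest of its group, unlike for MMP14 and MMP2. The means were 119 ± 8.35 and 149 ± 6.602 FPKM (SD, n = 3 each), and the change of 0.32 ± 0.10 on the log2(FPKM + 1) scale (SE) had a limma adjusted p of 0.139. With the GC trend removed the change was 0.33 and passed (adjusted p = 0.0433), but it missed the threshold when CPL replicate 1 was left out as well (0.0581) and in the other alternatives.

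TIMP1 (ENSG00000102265, chromosome X, 47582313 to 47586789, plus strand) encodes a secreted inhibitor that also binds pro-MMP9. Its level was 69.2, 69.6 and 76.7 FPKM in control and 101.2, 91.9 and 68.2 FPKM in CPL replicates 1, 2 and 3. CPL replicate 3 was below every control while the other CPL libraries were above them, so the groups overlapped. The means were 71.8 ± 4.21 and 87.1 ± 17.01 FPKM (SD, n = 3 each; change 0.26 ± 0.15 on the log2(FPKM + 1) scale, SE, limma adjusted p = 0.394). The change was 0.14 without CPL replicate 1 and 0.42 without CPL replicate 3 (adjusted p = 0.564 and 0.0964), and 0.13 with the GC trend removed. TIMP1 lies inside SYN1 and TIMP3 inside SYN3, neuronal genes on the opposite strand, with no exon base in common, and SYN1 and SYN3 had at most 0.163 and 0.0801 FPKM in any library.

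TIMP2 (ENSG00000035862, chromosome 17, 78852977 to 78925387, minus strand), the bridge between MMP14 and pro-MMP2, was almost undetected. It was listed at 0, 0.0779 and 0.0838 FPKM in control and at 0.0573, 0.0329 and 0.0221 FPKM in CPL, or 0, 8 and 8 reads and 5, 3 and 2 reads. The groups overlapped, and the sums of 16 reads (95% exact Poisson interval 9.15 to 25.98) in control and 10 (4.795 to 18.4) in CPL overlapped within counting error. The ratio of MMP14 to TIMP2 that had been planned is not given, because TIMP2 was at 0 in a control library and at or under 3 reads in others. Of the TIMPs tested, TIMP3 is shown as the most abundant member. Its promoter (chr22:32801455-32801754, plus strand) had the highest GC content of the 7 member promoters (72.7%, against 55.0% for MMP14), held 5 GC boxes, and held none of the AP-1, antioxidant or TATA letters.
TIMP3: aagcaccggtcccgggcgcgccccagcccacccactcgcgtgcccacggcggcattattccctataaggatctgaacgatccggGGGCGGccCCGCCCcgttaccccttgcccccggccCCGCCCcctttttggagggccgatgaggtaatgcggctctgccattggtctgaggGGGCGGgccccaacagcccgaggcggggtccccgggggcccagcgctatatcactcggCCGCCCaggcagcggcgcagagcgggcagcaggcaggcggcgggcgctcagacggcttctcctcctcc

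The ratio of MMP14 to each abundant inhibitor was computed within each library, where the library total cancels. These ratios were chosen after the values were seen and are given without a test. MMP14 per TIMP3 was 0.124, 0.0903 and 0.0886 in control replicates 1, 2 and 3, and 0.223, 0.152 and 0.153 in CPL replicates 1, 2 and 3. MMP14 per TIMP1 was 0.198, 0.165 and 0.138 in control and 0.315, 0.243 and 0.349 in CPL, again without overlap. Even in the highest library MMP14 mRNA was thus under the level of either inhibitor. On the log2 scale the group means of MMP14 per TIMP3 differed by 0.80. That difference was 0.64 with the GC trend removed, and 0.60 with CPL replicate 1 left out as well. For MMP14 per TIMP1 these values were 0.86, 0.84 and 0.82. The planned ratio of MMP9 to TIMP1 differed by 0.95 on the log2 scale between the group means, with an exact two-sided permutation p of 0.3 (the smallest that 3 against 3 libraries allow is 0.1). It rested on the 2 to 13 reads of MMP9.

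**Figure D2:**
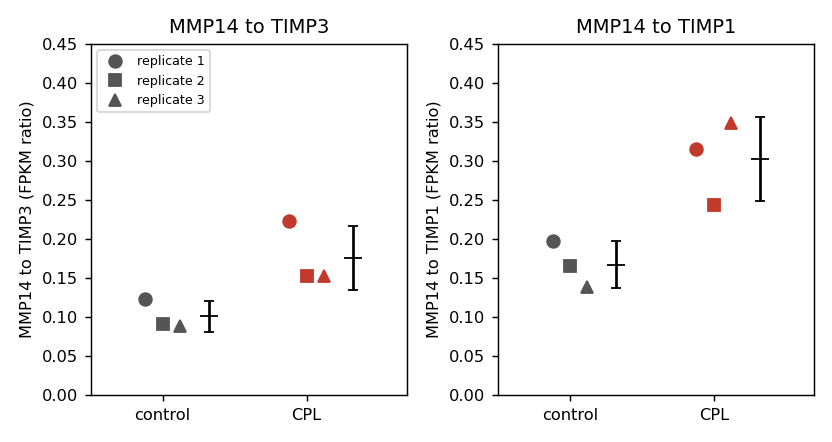
FPKM ratio of MMP14 to TIMP3 (left) and of MMP14 to TIMP1 (right) within each library, by group, with marker shapes for replicates 1 to 3 and the mean ± SD (n = 3) in black. The ratio to TIMP3 is 0.0886 to 0.124 in control and 0.152 to 0.223 in CPL, and the ratio to TIMP1 is 0.138 to 0.198 and 0.243 to 0.349.

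The urokinase receptor had every CPL library above every control, as did 14.1% of all tested genes, and did not pass the test. Urokinase did not pass either, and the filter already required its CPL libraries to lie above the controls. PLAUR (ENSG00000011422, chromosome 19, 43646095 to 43670547, minus strand) encodes the lipid-anchored receptor uPAR that holds urokinase at the cell surface. Its level was 3.58, 3.83 and 3.32 FPKM in control and 5.83, 4.49 and 4.67 FPKM in CPL replicates 1, 2 and 3, with CPL replicate 1 the highest. The means were 3.58 ± 0.251 and 4.995 ± 0.724 FPKM (SD, n = 3 each), and the change of 0.38 ± 0.12 on the log2(FPKM + 1) scale (SE) had a limma adjusted p of 0.160, and of 0.0627 with the GC trend removed. Without CPL replicate 1 the change was 0.29 (adjusted p = 0.141).

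PLAU (ENSG00000122861, chromosome 10, 73909177 to 73917497, plus strand) encodes urokinase, the plasminogen activator. It had 0.856, 0.520 and 0.780 FPKM in control, from 37, 28 and 39 reads, and 1.47, 1.28 and 1.498 FPKM in CPL, from 67, 61 and 71 reads. PLAU reached the filter of 1 FPKM in the CPL libraries only, so its place among the tested genes already required a difference. The means were 0.719 ± 0.176 and 1.41 ± 0.119 FPKM (SD, n = 3 each), with a change of 0.49 ± 0.15 on the log2(FPKM + 1) scale (SE, limma adjusted p = 0.148) and of 0.99 with a pseudocount of 0.01. C10orf55, on the opposite strand, shares 31.1% of the exon bases of PLAU and was at most 0.0514 FPKM.

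SERPINB2 (ENSG00000197632, chromosome 18, 63871692 to 63903890, plus strand), which encodes the urokinase inhibitor PAI-2 known from activated monocytes, was listed at 0 in 5 of the 6 libraries. CPL replicate 2 had 4 reads, or 0.08999 FPKM. At these depths 3 reads on SERPINB2 correspond to 0.0599 to 0.0745 FPKM, the limit that a count of 0 allows, and no fold is given. The planned ratio of PLAU to SERPINB2 is therefore not given either. SERPINB10 overlaps SERPINB2 on the same strand over 19.9% of the exon bases of SERPINB2. It is not in the deposited table, so no level can be given for it.

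PLAUR and SERPINB2 are shown because, of the 7 member promoters that could be searched, only theirs held the AP-1 letters. Those of MMP2, MMP9 and TIMP2 were not available. The antioxidant letters were found only in 1 of the 2 PLAU promoters, 168 bases before its start. NF-kB matches, some of them overlapping, numbered 10 in TIMP3, 5 in PLAUR and 0 in SERPINB2. In PLAUR (chr19:43670120-43670419, minus strand) TGAGTCA began 186 bases before the start, with no GC box. In SERPINB2 (chr18:63887455-63887754, plus strand) TGAATCA began 102 bases before the start and TATAAA 30 bases before it, with a GC content of 39.0%. A match is a description of the letters, and the factors' binding was not measured.
PLAUR: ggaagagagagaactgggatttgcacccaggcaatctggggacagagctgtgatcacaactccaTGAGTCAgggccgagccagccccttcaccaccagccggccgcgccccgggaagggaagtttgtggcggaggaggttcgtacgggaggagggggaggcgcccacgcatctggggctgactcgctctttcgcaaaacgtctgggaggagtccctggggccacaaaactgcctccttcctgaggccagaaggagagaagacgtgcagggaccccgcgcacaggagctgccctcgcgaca
SERPINB2: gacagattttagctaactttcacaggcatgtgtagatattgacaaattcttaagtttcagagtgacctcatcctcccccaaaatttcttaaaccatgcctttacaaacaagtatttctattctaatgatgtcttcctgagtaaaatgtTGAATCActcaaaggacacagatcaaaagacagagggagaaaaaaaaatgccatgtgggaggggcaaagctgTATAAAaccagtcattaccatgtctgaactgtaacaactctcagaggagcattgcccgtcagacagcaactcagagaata

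Around these 9 genes stood 133 further genes of matrix proteolysis in 7 lists, of which 109 were in the table and 49 were tested. Only ADAMTS1 passed, and it rose. Over all tested genes 1.09% were called higher and 0.665% lower, so nothing is read from this count. Without adjustment 15 of the 49 had a limma p under 0.05 with a rise and 9 with a fall, against 1249 and 1309 of all 13092 tested genes. The same shares apply to the unadjusted counts of each list below, from which nothing is read either. The median change over the 49 genes was 0.11 on the log2(FPKM + 1) scale, and −0.0051 over all tested genes. ADAMTS1, a secreted protease that cuts proteoglycans, had 14.4, 13.9 and 13.1 FPKM in control and 21.1, 20.7 and 20.1 FPKM in CPL replicates 1, 2 and 3, and replicates of a group differed little. The means were 13.8 ± 0.663 and 20.6 ± 0.502 FPKM (SD, n = 3 each; change 0.55 ± 0.09, SE, limma adjusted p = 0.0372). Its adjusted p was 0.0159 without CPL replicate 1 and up to 0.185 in the fits without another library, none of which kept the call.

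Regulators of metalloproteases did not pass. Of 12 genes 4 were tested (2 with an unadjusted limma p under 0.05, both higher in CPL, and a median change of 0.26). FURIN, the proprotein convertase that removes the propeptide of MMP14, was at 43.1 ± 0.949 FPKM in control and at 84.9, 61.03 and 54.1 FPKM in CPL replicates 1, 2 and 3 (limma adjusted p = 0.119, 0.0349 without CPL replicate 1 and 0.00665 with the GC trend removed). BSG, which encodes the metalloprotease inducer basigin, was at 46.1 ± 2.44 and 55.3 ± 15.9999 FPKM (adjusted p = 0.541), and its 73.5 FPKM in CPL replicate 1 stood above the 49.04 and 43.4 FPKM of the other CPL libraries. Its change of 0.22 on the log2(FPKM + 1) scale was 0.0020 without that library. RECK, a membrane-anchored inhibitor of MMP14, MMP2 and MMP9, stayed under the filter at 0.700 to 0.898 FPKM in control and 0.906 to 1.03 FPKM in CPL. Among the 20 other metalloproteases 13 were in the table, and MMP17 alone was tested. It was under 1 FPKM in every control, so, like PLAU, it passed the filter through the CPL libraries only (0.850 FPKM in control and 1.61 FPKM in CPL on average, adjusted p = 0.288). MMP15 was under the filter with at most 1.56 FPKM. MMP17 and MMP15 were named after their values were seen.

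None of the 7 tested genes of the urokinase and plasmin system passed (limma; 2 with an unadjusted p under 0.05 and a rise, 1 with a fall; median change 0.11). ANXA2, which together with S100A10 forms a plasminogen receptor, was at 24.8 ± 0.675 FPKM in control and 33.6 ± 2.90 FPKM in CPL (SD, n = 3 each), without overlap (adjusted p = 0.0881, 0.0151 without CPL replicate 1 and 0.00399 with the GC trend removed). S100A10 was at 51.8 ± 5.43 and 46.5 ± 4.9998 FPKM (adjusted p = 0.518). PLAT, which encodes the tissue-type plasminogen activator, was under the filter with 1 to 13 reads per library and LRP1, an endocytic receptor of protease and inhibitor complexes, had at most 0.197 FPKM.

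Of 10 tested ADAM and ADAMTS genes 1 rose and 9 did not pass (median change 0.09). At an unadjusted limma p under 0.05, 4 were higher in CPL and 1 was lower. ADAM15 had the largest change of the list, 0.87 ± 0.17 (SE), at 17.2 ± 0.680 FPKM in control and 32.8 ± 8.12 FPKM in CPL. Its limma adjusted p was 0.0518, and 0.00171 with the GC trend removed. ADAM9 was at 3.45 ± 0.531 and 5.85 ± 0.519 FPKM (adjusted p = 0.0601, and 0.00371 with the GC trend removed). Both were named after their values were seen. ADAM17, the sheddase of TNF, was at 9.08 ± 0.332 and 13.3 ± 2.16 FPKM without overlap (adjusted p = 0.107, 0.0184 without CPL replicate 1 and 0.00188 with the GC trend removed). ADAM10, its relative, was at 12.01 ± 1.04 and 10.8 ± 1.58 FPKM with overlap (adjusted p = 0.563). In the serpin list 6 of 21 genes were tested and none passed, with a median change of −0.35. All 4 with an unadjusted limma p under 0.05 were lower in CPL. Over all 13092 tested genes 1309 were lower and 1249 higher at that p, and nothing is read from so small a count. SERPINB1, an inhibitor of neutrophil serine proteases, was at 76.2 ± 7.03 and 61.1 ± 4.62 FPKM, with every CPL library below every control (adjusted p = 0.184).

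Cathepsins and cystatins, the lysosomal proteases and their inhibitors, had 14 tested genes and none passed, with 4 higher and 3 lower at an unadjusted limma p under 0.05 and a median change of −0.0045 on the log2(FPKM + 1) scale. In 4 of these 14 genes all CPL libraries lay above all controls and in 5 below, where the shares over all tested genes were 14.1% and 14.9%. CTSB was at 26.0 ± 1.55 and 33.4 ± 3.51 FPKM (adjusted p = 0.157, and 0.0464 with the GC trend removed). CTSD was at 13.8 ± 2.04 and 25.7 ± 10.2 FPKM (adjusted p = 0.147, and 0.0132 with the GC trend removed), with 37.4 FPKM in CPL replicate 1 and 20.4 and 19.3 FPKM in the other CPL libraries. Its change of 0.80 on the log2(FPKM + 1) scale was 0.50 without CPL replicate 1 (adjusted p = 0.0597). CTSH, named after its values were seen as an example of the 5 that lay below, was at 3.88 ± 0.363 FPKM in control and 2.11 ± 0.277 FPKM in CPL (adjusted p = 0.0518, and 0.00456 with the GC trend removed). Of 23 matrix substrates 7 were tested and none passed, with 3 higher at an unadjusted limma p under 0.05 and a median change of 0.18. COL1A1, COL1A2 and COL3A1, the chains of the main fibrillar collagens, were at most 0.150 FPKM in any library and were likewise named after their values were seen. With the GC trend removed, 12 of the 49 genes in all lists were called higher and 5 lower, where 13.3% of all tested genes were called.

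**Figure D3:**
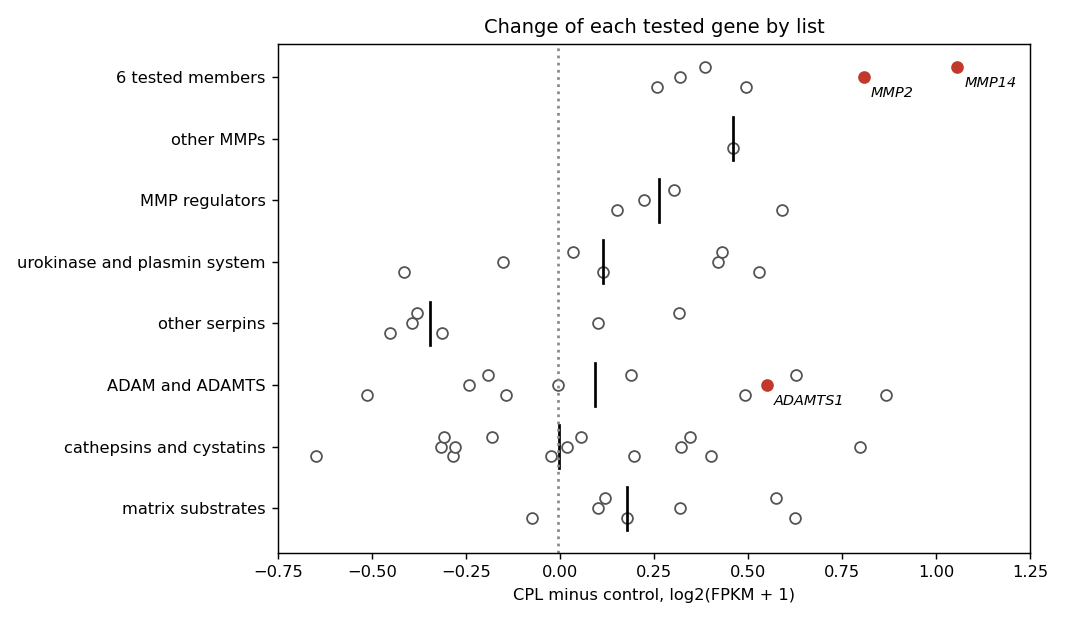
Change from control to CPL on the log2(FPKM + 1) scale (horizontal axis) for the 6 tested members and for the tested genes of 7 lists, a point per gene, filled where limma's adjusted p was under 0.05, with a black bar at each list's median and a dotted line at the median of all tested genes. MMP14 (1.06), MMP2 (0.81) and ADAMTS1 (0.55) are the filled points.

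The tested genes most like MMP14 over the 6 libraries, by Pearson correlation of log2(FPKM + 1), were FOSL2 (r = 0.998), ADCY6 (0.997) and RNF41 (0.996). For MMP2 they were PPP1R16B (0.999), SH2B3 (0.997) and DENND5A (0.997). Their means were 5.06 and 8.94 FPKM in control and CPL for FOSL2, an AP-1 subunit gene, and 12.5 and 22.3 FPKM for SH2B3, which encodes the JAK2 adaptor LNK. The points share the split into control and CPL, and 290 genes reached r = 0.95 with MMP14 and 285 with MMP2, so the values describe likeness across these 6 libraries and no more.

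**Figure D4:**
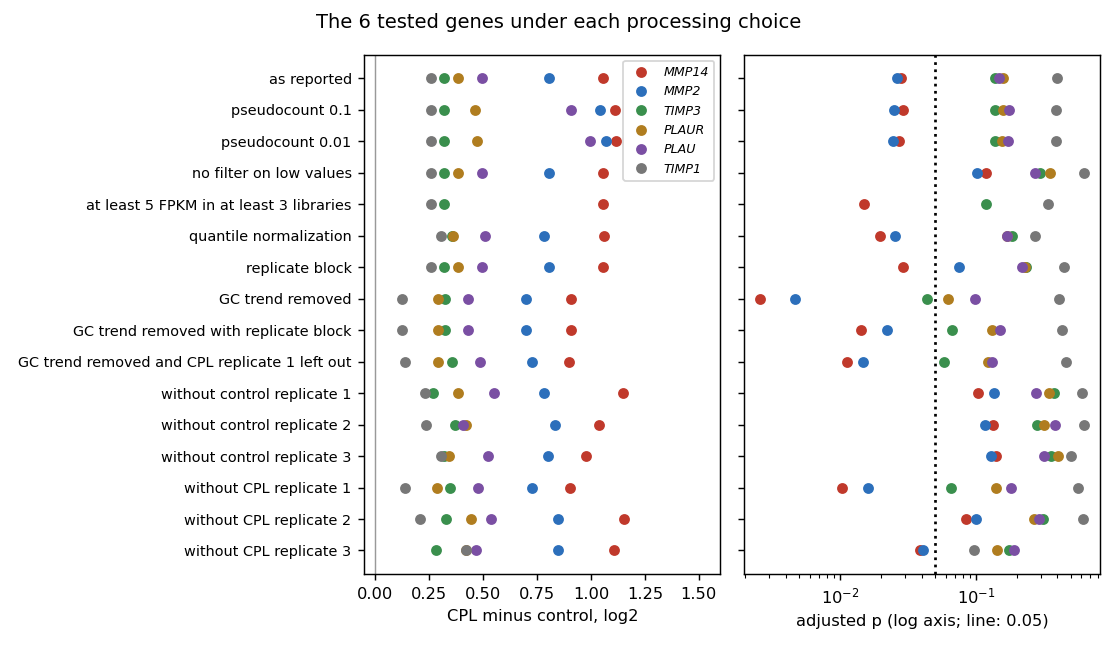
Change on the log2 scale (left) and limma adjusted p on a log axis (right, dotted line at 0.05) of the 6 tested genes under the reported setting and each of the 15 alternatives, which are the rows. MMP14 stays between 0.90 and 1.15 and MMP2 between 0.70 and 1.07, while their adjusted p lies on either side of the line, up to 0.140 and 0.136.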

How the data were processed

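Polyadenylated RNA of 6 SET-2 libraries was sequenced in single-end reads, per the labels' protocols. Expression was deposited as FPKM in 1 table of 30735 genes with a column per library, matched here through the description field (0 other value columns). The unit was taken from the values: multiplied by the merged exon length in GENCODE 29, 98.7% to 99.0% of values worth up to 20 reads were whole within 0.1 read, which also gave the depth and reads per gene. Per the submitters' processing notes, the build was GRCh38 and the tools were RSEM 1.2.12, HISAT2 2.0.4, DESeq2 1.4.5 and Bowtie2 2.2.5, with no role stated. Because FPKM is relative to the total, a shift in highly expressed genes moves the values of the rest.

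The 13092 genes that reached 1 FPKM in 3 or more libraries were fitted with limma 3.58.1 in R 4.3.3 on log2(FPKM + 1), with group as the only term, trend and robust moderation, two-sided, Benjamini-Hochberg adjusted at 0.05. The code was tested on simulated data. Pairs of replicates differed by more than sampling noise (chi-square divided by its degrees of freedom, 7.92 to 57.3, the largest in a pair with CPL replicate 1). Each library counted as 1 sample, but this excess does not show that replicates were separate cultures. Alternatives were other pseudocounts and filters, quantile normalization, a replicate block, removal of each library's GC trend (loess, span 0.5) and leaving out each library. Genes named beyond the members were list genes past the threshold (12 at most), a set of genes of interest named whatever their test (a withheld item among them is not reported here), the 3 genes most alike to each called member and genes overlapping a member. Members, lists and genes were chosen with earlier results of these data known. Python 3.11.15, pandas 2.3.3 and matplotlib 3.10.9 were used. Exact Poisson intervals and the floor of 3 reads cover counting error only. The ratios of MMP14 to TIMP2 and of PLAU to SERPINB2 were left out because the denominators were at 0 or a few reads.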

Additional observations from a re-analysis of the deposited data

How the results depend on the processing

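MMP14, MMP2, TIMP3, TIMP1, PLAU and PLAUR kept a positive change in every alternative that could be fitted. For all of them but TIMP1 the groups did not overlap, so leaving out 1 library could not reverse the sign. MMP14 passed the test in 10 of 15 alternatives and MMP2 in 8 of 14. Of the 6 tested members 2 passed as reported, 1 with a minimum of 5 FPKM (MMP2 was then not tested), 1 with the replicate block (MMP2 at an adjusted p of 0.0746) and 0 with no filter, where 30735 genes shared the adjustment and the adjusted p of MMP14 and MMP2 was 0.118 and 0.102. Leaving out 1 library gave 0 to 2 members. Over all genes 230 calls became 25 with no filter, 63 with the replicate block, 1738 with the GC trend removed, 1076 with that and the replicate block, 1155 with it and CPL replicate 1 left out, and 18 to 703 without 1 library. Of the 49 further list genes 1 passed as reported, 2 with a pseudocount of 0.01, 0 with no filter, 3 with a minimum of 5 FPKM, 3 with quantile normalization, 0 with the replicate block, 17 with the GC trend removed, 12 with that and the block, 15 with it and CPL replicate 1 left out, and 0 to 9 without 1 library. Of the genes followed through all alternatives, the members and those named whatever their test, BSG changed sign, to −0.0104 with the GC trend removed and CPL replicate 1 left out. Among all 49 list genes, 6 changed sign with the GC trend removed, none of them called in either fit. The cause of these shifts was not tested. The log2 ratio of MMP9 to TIMP1 stayed positive, from 0.38 without control replicate 3 to 1.62 without control replicate 2. Whether replicate numbers pair the libraries is not known. Same-numbered control and CPL libraries deviated with correlations of 0.084, 0.088 and −0.168, and not every library correlated best with its own number. These deviations also hold the GC trends of the libraries, so the correlations cannot decide whether the numbers mark pairs. MMP9, TIMP2 and SERPINB2 had at most 13 reads per library and were not tested at the reported filter, so a change in them was neither shown nor excluded.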
